A study of Capra hircus with 8 samples.

Results

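The change in long non-coding RNAs (lncRNAs) between the 4-cell and the 8-cell stage was followed in goat (Capra hircus) embryos made by in vitro fertilisation (IVF). The 4 libraries compared were 2 of IVF 4-cell embryos and 2 of IVF 8-cell embryos. Of 6011 lncRNAs in the table of both stages, the 1975 at 0.5 FPKM or more in at least 2 of these 4 libraries were followed. FPKM is the number of sequenced fragments per kilobase of RNA and per 1000000 fragments. The members fall into 415 annotated lncRNAs, which carry a gene ID, and 1560 numbered lncRNAs, which carry only an lnc_ number. The submitters do not say in the sources used here how the numbered lncRNAs were assembled.

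The labels give the treatment (IVF) and the stage of each library and name no strain, agent or genetic change. Whole embryos were lysed for Smart-seq2, which makes and amplifies full-length cDNA from the polyadenylated RNA of very few cells. The other 4 libraries of the series are from SCNT embryos (somatic cell nuclear transfer, where the nucleus of a body cell replaces that of the egg), 2 at each of these stages; the donor cell is not named in the labels. Nothing in the sources used here says how many embryos made a library or whether 2 libraries of a group came from separate pools, so p-values measure only the spread between these samples. SCNT libraries entered the fit to share in the estimate of that spread, and their own values are given beside those of the IVF embryos where the changes differed.

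An early embryo lives at first on RNA that the oocyte stored, and it starts to transcribe its own genome over the first cleavages. In ruminants the main wave of this activation falls around the 8-cell stage, while stored RNA is degraded. Long non-coding RNAs are transcripts that are not translated into a known protein; many are made near protein-coding genes, and many are present for a short time or in few tissues. A higher FPKM at 8 cells can come from new transcription, from slower decay or from a smaller amount of other RNA, and these cannot be told apart here. Nor can a change in all cells of an embryo be told from a change in some of them.

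Library totals recovered from the values were 26.9 and 28.7 M reads at 4 cells and 27.5 and 30.3 M at 8 cells (M, 1000000). Markers of the sample could be read only at 8 cells, where a messenger RNA table was available. Of 10 oocyte and early-embryo genes, 9 were at 1 FPKM or more in both IVF libraries, with summed levels of 2594 and 1627 FPKM; they include GDF9, an oocyte growth factor, and LEUTX, a homeobox gene of early embryos. Of 6 cumulus and granulosa markers 2 reached that level (summed 22.4 and 31.3 FPKM), and FSHR, INHBA and AMH were at 0 in both libraries. Of 6 fibroblast markers 4 reached 1 FPKM in both libraries. The list summed to 116 and 106 FPKM, of which the matrix gene DCN held 94.3 and 85.5 and LUM 16.1 and 13.0. Of 4 sperm markers 1 reached 1 FPKM in both libraries, and of 2 blood markers none did. The part of these levels in the lncRNA values was not tested.

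More lncRNAs reached 0.5 FPKM at 8 cells than at 4. At lower levels the stages overlapped, and for annotated lncRNAs they also did at 5 FPKM. Numbered lncRNAs at 0.5 FPKM or more came to 1184 and 1420 in the 4-cell libraries and to 1588 and 1612 in the 8-cell libraries. For annotated lncRNAs the numbers were 352 and 389 at 4 cells and 460 and 414 at 8 cells. Both 8-cell libraries lay above both 4-cell libraries in each class at this level. In an exact two-sided permutation test over the 4 libraries each of these differences had p = 0.333, the smallest value that 2 against 2 libraries can give. At 0.1 FPKM the stages overlapped, with 1965 and 2302 numbered lncRNAs at 4 cells and 2496 and 2222 at 8 cells, and with 657 and 639 annotated ones against 736 and 651. Above 0, numbered lncRNAs came to 2110 and 2473 and then to 2614 and 2320, and annotated ones to 904 and 863 and then to 927 and 798, again with overlap. At 5 FPKM annotated lncRNAs came to 111 and 126 and then to 139 and 119, with overlap. Numbered ones came to 265 and 314 and then to 329 and 388 at that level, without overlap.

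The summed FPKM of numbered lncRNAs was 9511 and 12879 at 4 cells and 18029 and 17731 at 8 cells. A single numbered lncRNA, lnc_1415, held 3329 FPKM in IVF 8-cell replicate 1 and was at 0 in the other 7 libraries. It is not among the members. Without it the sum in that library was 14700 FPKM, still above both 4-cell libraries. Annotated lncRNAs summed to 8592 and 12565 FPKM at 4 cells and to 13151 and 11573 FPKM at 8 cells, so their stages overlapped (exact permutation p = 0.667). Numbered lncRNAs held 52.5% and 50.6% of all lncRNA FPKM at 4 cells and 57.8% and 60.5% at 8 cells (exact permutation p = 0.333). Without lnc_1415 the share in IVF 8-cell replicate 1 was 52.8%, close to that of the higher 4-cell library. When the 10 most abundant lncRNAs were left out, the shares were 68.6% and 72.0% at 4 cells and 70.3% and 76.9% at 8 cells, and the stages overlapped.

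The typical member was slightly higher at 8 cells. On the log2(FPKM + 0.5) scale, the median change from 4 to 8 cells was 0.21 for annotated members and 0.30 for numbered members, against 0.23 over all 2611 lncRNAs tested. The same medians were found when lncRNAs at 0 in one stage were set at the smallest change that 3 reads in each empty library would allow. Only 5 annotated and 132 numbered members were reset. A median depends little on values away from the middle, so this could hardly have shown an effect of zeros. Replicates of a stage differed by amounts similar to the median changes. The median member differed between replicate 2 and replicate 1 by 0.22 (annotated) and 0.31 (numbered) at 4 cells, and by -0.18 and 0.20 at 8 cells. With the libraries' medians aligned, the annotated median was -0.0754 and the numbered one 0.01, so the direction of the annotated median depended on the scaling.

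The 4 most abundant annotated lncRNAs did not pass the test. LOC106502328, the highest member of the class, was at 4408 and 6300 FPKM at 4 cells and at 6884 and 6693 FPKM at 8 cells. Its 8-cell values lay above both 4-cell values, and its log2 change of 0.37 (SE 0.24) did not pass (limma, adjusted p = 0.563). LOC102181209 went the other way, from 766 and 1778 FPKM to 946 and 376 FPKM, and its stages overlapped. The level of LOC102190531 was 471 and 858 FPKM at 4 cells and 772 and 602 FPKM at 8 cells, again with overlap. LOC102180967, which lies next to the membrane protein gene CD200 in the RefSeq gene order, was at 209 and 396 FPKM and then at 522 and 480 FPKM.

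Among the numbered lncRNAs, lnc_3094 was the most abundant, with 1832 and 2399 FPKM at 4 cells and 2709 and 4112 FPKM at 8 cells. Its log2 change was 0.67 (SE 0.29), which did not pass (adjusted p = 0.378). lnc_416 was at 447 and 732 FPKM and then at 1339 and 1016 FPKM, without overlap (adjusted p = 0.331). lnc_3602 was lower at the later stage, at 755 and 815 FPKM and then at 312 and 420 FPKM (adjusted p = 0.348). lnc_64 had 302 and 313 FPKM at 4 cells and 451 and 280 FPKM at 8 cells, and its stages overlapped.

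**Figure D1:**
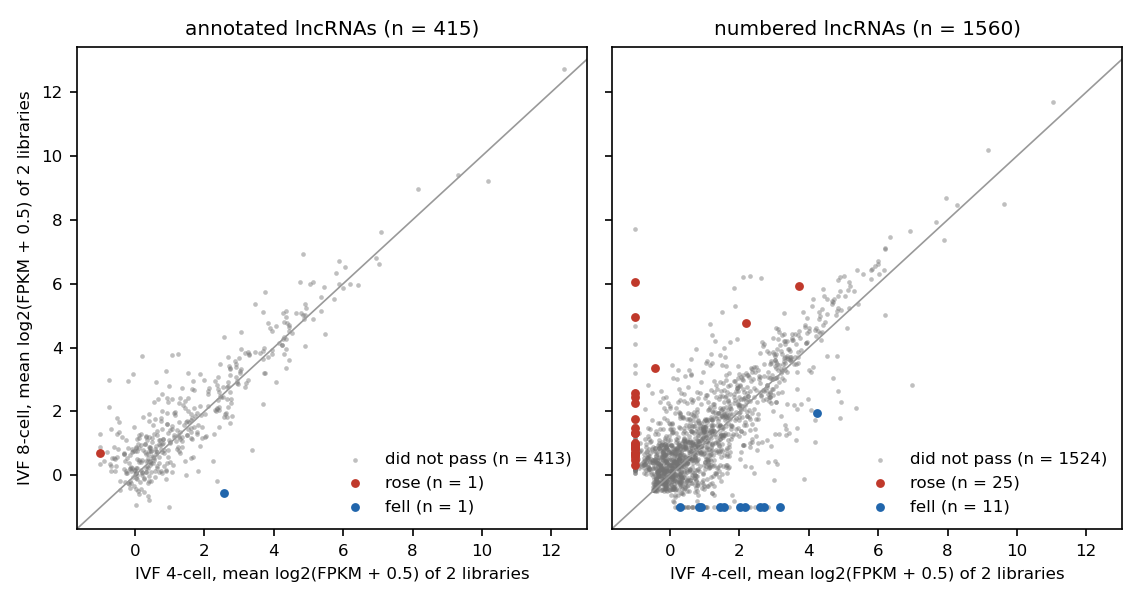
Mean log2(FPKM + 0.5) of the 2 IVF 4-cell libraries (horizontal axis) against that of the 2 IVF 8-cell libraries (vertical axis) for 415 annotated and 1560 numbered members; the grey line marks equal levels, red points rose and blue points fell in limma at an adjusted p under 0.05. Most of the coloured points lie on the left or lower edge, where a stage is at 0 in both libraries.

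Few members passed the test. Of all 2611 tested lncRNAs, 1.46% were called in either direction at an adjusted p under 0.05 by limma, 0.996% as higher and 0.46% as lower at 8 cells. Among annotated members 1 rose, 1 fell and 413 did not pass; 64 had an unadjusted p under 0.05. Among numbered members 25 rose, 11 fell and 1524 did not pass, with 301 at an unadjusted p under 0.05. Over all tested lncRNAs, 14.3% had an unadjusted p under 0.05. All 38 lncRNAs called were members; the tested lncRNAs outside the members were under 0.5 FPKM in at least 3 of the 4 IVF libraries. With those that passed included, 68 annotated (16.4%) and 334 numbered members (21.4%) had a log2 change above 1, against 18.1% of all tested lncRNAs. A log2 change below -1 was found in 16 annotated (3.86%) and 144 numbered members (9.23%), against 8.08% of all tested lncRNAs.

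The calls depended strongly on the libraries and the settings. Leaving out IVF 4-cell replicate 1 gave 10 numbered calls, and leaving out its replicate 2 gave 4. Leaving out 8-cell replicate 1 of the IVF embryos gave 70, and leaving out replicate 2 gave 59. For the SCNT libraries, the counts were 9 and 4 when a 4-cell replicate (1, then 2) was left out and 71 and 75 when an 8-cell replicate was. The annotated count ranged from 0 to 6 over the same 8 omissions. Fitted on the IVF libraries alone, 1 lncRNA passed. With the medians of the libraries aligned, 6 rose and 10 fell over all tested lncRNAs, against 26 and 12 with the values as deposited. Where both libraries of a group are at 0 the group contributes no variance, which can make a standard error too small. This touches 22 of the 25 numbered lncRNAs that rose and 10 of the 11 that fell, which were at 0 in both IVF libraries of the other stage. SCNT groups at 0 act in the same way, as in lnc_3212. In 17 of the numbered risers, 5 of the numbered fallers and the annotated riser, all 3 other groups were at 0. Their standard errors rest on the remaining pair, and most alternative settings refit the same zeros. Whether reads of the same locus can be listed under different numbers in different libraries is not given in the sources used here. A 0 for a numbered lncRNA is therefore a listed value that does not by itself show absence of the RNA, and the lower bounds of folds below hold for the listed values.

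Both libraries of one stage lay above both of the other in many more members. At 8 cells this held for 148 annotated (35.7%) and 566 numbered members (36.3%), against 30.1% of all tested lncRNAs. At 4 cells it held for 54 annotated (13%) and 184 numbered members (11.8%), against 11.3%. The shares over all tested lncRNAs include those that were low or at 0 in IVF embryos.

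Of the annotated lncRNAs, LOC108637654 (gene14881) fell. It was at 6.52 and 4.51 FPKM at 4 cells and at 0.41 and 0 FPKM at 8 cells, which corresponds to 77, 57, 5 and 0 reads. Read numbers here are the smallest that turn the FPKM values of all 8 libraries into whole reads. Both 4-cell libraries were above both 8-cell libraries, and the log2 change was -3.13 (SE 0.47, adjusted p = 0.0389). In SCNT embryos it stood at 0.94 and 0.94 FPKM at 4 cells and at 3.28 and 5.34 FPKM at 8 cells, where it was higher at 8 cells without overlap, though not past the threshold (adjusted p = 0.254). In the RefSeq gene order its neighbours are EIF3M, a subunit of a translation initiation factor, and WT1, a zinc-finger transcription factor of the kidney and gonad. At 8 cells EIF3M was at 493 and 463 FPKM and WT1 at 1.78 and 1.41 FPKM in the IVF libraries. The call was kept in 8 of 20 alternative settings.

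LOC108637423 (gene13666) rose from 0 and 0 FPKM to 1.19 and 1.08 FPKM, or 10 reads in each 8-cell library, and was at 0 in all 4 SCNT libraries. Against 3 reads per empty library the 8-cell mean was at least 3.21-fold higher (adjusted p = 0.0329). This call was kept in 7 of 20 alternative settings and rests on few reads. CTNNBL1, which codes for a nuclear protein of the splicing machinery, follows it in the gene order and was at 25.5 and 15.03 FPKM at 8 cells.

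The 4 other annotated members given here had the next smallest p-values in their direction without passing. LOC102171192 was at 0.64 and 0.30 FPKM at 4 cells and at 13.1 and 5.53 FPKM at 8 cells, without overlap. Its log2 change was 3.25 (SE 0.54, adjusted p = 0.0508), and it stayed at or under 0.35 FPKM in the 4 SCNT libraries. It lies between RTP4, an interferon-induced gene, and MASP1, a protease of the complement system. LOC106503726, between KIRREL3 and the transcription factor gene ETS1, was at 0 and 0 FPKM and then at 2.07 and 0.80 FPKM (adjusted p = 0.0672). On the falling side LOC108637167, beside IFNLR1 and GRHL3, went from 0.52 and 0.53 FPKM to 0.05 and 0 FPKM (adjusted p = 0.145). LOC108633369 went from 4.31 and 5.04 FPKM to 0.70 and 0.16 FPKM (adjusted p = 0.147).

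Position along the genome was read from the order of genes in RefSeq's goat assembly ARS1.2, which may not be the build of the deposited tables, so no coordinates are given. All 415 annotated members were placed, and 385 of them had a protein-coding gene on at least 1 side. In 9 cases 2 members were direct neighbours, and in 6 of these pairs both changed in the same direction. Members that are not neighbours were not compared in this way, so these counts cannot show whether neighbours change together. LOC108634251 was in 2 of the pairs. Log2 changes over the 9 pairs lay between -1.19 and 1.23. Some that matched in direction were small, such as 0.03 and 0.06 for LOC106503541 and LOC102173519. The pair of LOC108634251 and LOC108634200 was at 1.23 and 1.06. None of the members of these pairs passed the test.

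Of a list of well-studied lncRNAs such as XIST, H19 and MALAT1, none was matched among the 1291 of 1505 annotated entries that could be paired with a symbol. Of the members, 13 carried a symbol that is not a LOC number, and none passed, with log2 changes from -0.77 to 1.90. These are genes that RefSeq's goat annotation lists as lncRNA although the symbol names a protein-coding gene in other species. C3H1orf52 had the largest of these changes, from 11.1 and 9.87 FPKM to 78.3 and 20.8 FPKM, without overlap (adjusted p = 0.275). HNRNPF, named for an RNA-binding protein of splicing, was at 96.6 and 76.9 FPKM and then at 84.6 and 45.9 FPKM. GNB2, named for a G-protein subunit, was at 33.7 and 15.01 FPKM and then at 15.4 and 30.4 FPKM. JAM3, named for a cell-junction protein, was at 25.5 and 15.4 FPKM and then at 11.8 and 19.1 FPKM. In these 3 the stages overlapped. The other 9 had log2 changes between -0.77 and 0.70. Another 3 such genes, SOX7, TANGO2 and TRNP1, were tested but did not reach the entry level in 2 IVF libraries, and none of them passed.

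lnc_1448 had the smallest adjusted p of all members. It was at 0 in both 4-cell libraries and at 54.9 and 80.5 FPKM in the 8-cell libraries, or 701 and 1134 reads. It was also at 0 in all 4 SCNT libraries, so it was listed above 0 in the IVF 8-cell libraries only. The 8-cell mean was at least 291-fold above the level of 3 reads (log2 change 7.07, SE 0.38, adjusted p = 0.00229). With 3 of the 4 groups at 0, its spread came from the IVF 8-cell pair alone. Without either library of that pair, no spread of its own was left, so passing there was all but fixed. Most other settings refit the same zeros. The call was kept in 19 of 20 alternative settings, which for these reasons is a weak measure of its reliability. The exception was the fit on the IVF libraries alone, at an adjusted p of 0.135.

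lnc_2121 rose from 0 and 0 FPKM to 22.2 and 41.5 FPKM, at least 318-fold (adjusted p = 0.0106). Unlike lnc_1448 it was above 0 in every SCNT library, at 26.9 and 14.9 FPKM at 4 cells and at 12.2 and 19.1 FPKM at 8 cells. The 2 IVF 4-cell libraries were thus the only ones at 0. The call was kept in 16 of 20 alternative settings.

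The other large increases were of lncRNAs listed at or near 0 outside the IVF 8-cell libraries. lnc_3212 was at 0 and 0.58 FPKM and then at 7.15 and 13.2 FPKM (log2 change 3.80, SE 0.52, adjusted p = 0.0329), and it was at 0 in the 4 SCNT libraries. lnc_1987 went from 0 and 0 FPKM to 4.85 and 6.26 FPKM, at least 56.2-fold. lnc_4433 went from 0 and 0 FPKM to 4.25 and 5.77 FPKM, at least 62.7-fold, and both it and lnc_1987 were at 0 in all SCNT libraries. lnc_2490 was at 0 and 0 FPKM at 4 cells and at 4.94 and 3.73 FPKM at 8 cells, with 0.37 FPKM in SCNT 4-cell replicate 2 and 0 in the other SCNT libraries. These 4 calls were kept in 9 (lnc_3212), 15 (lnc_1987), 14 (lnc_4433) and 13 (lnc_2490) of 20 alternative settings.

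Of the 25 numbered lncRNAs that rose, 22 were at 0 in both 4-cell libraries and 17 were at 0 in both libraries of all 3 other groups. Most were low even where above 0. In 16 of the 25 both 8-cell values were under 3 FPKM, and the smaller 8-cell read number ranged down to 6, with a median of 57. In 5 of the 25 both 8-cell libraries were at 5 FPKM or more.

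lnc_743 and lnc_193 were the risers above 0 in all 8 libraries, where a fold can be read directly. lnc_743 was at 9.85 and 16.0 FPKM at 4 cells and at 59.2 and 60.4 FPKM at 8 cells (log2 change 2.21, SE 0.35, adjusted p = 0.0473). In SCNT embryos it was at 30.3 and 23.2 FPKM and then at 44.4 and 36.6 FPKM, between the 2 IVF levels. lnc_193 was at 3.54 and 4.74 FPKM and then at 22.0 and 32.4 FPKM (log2 change 2.57, SE 0.42, adjusted p = 0.0484). Each of these calls was kept in 6 of 21 alternative settings.

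lnc_4139 had the largest fall. It was at 6.78 and 10.5 FPKM at 4 cells and at 0 in both 8-cell libraries, at least 124-fold lower (adjusted p = 0.0106). In SCNT embryos it held a level of 4.56, 4.48, 4.15 and 4.37 FPKM over the 2 stages. lnc_1945 went from 5.61 and 6.47 FPKM to 0 and 0 FPKM, at least 103-fold lower, and in SCNT embryos it was between 2.62 and 4.94 FPKM. lnc_2909 was at 1.93 and 2.98 FPKM and then at 0 and 0 FPKM, while the SCNT libraries were between 1.70 and 2.45 FPKM. For these 3, the IVF 8-cell libraries were the only ones at 0. The calls were kept in 16 (lnc_4139), 15 (lnc_1945) and 9 (lnc_2909) of 20 alternative settings.

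lnc_2888 and lnc_702 were above 0 in the IVF 4-cell libraries only. lnc_2888 was at 5.10 and 5.91 FPKM there, or 288 and 357 reads, and at 0 in the other 6 libraries (at least 111-fold lower at 8 cells, adjusted p = 0.0106). lnc_702 was at 2.46 and 4.93 FPKM there and at 0 in the other 6. lnc_4194 fell from 3.04 and 5.13 FPKM to 0 and 0 FPKM and stayed at or under 0.67 FPKM in SCNT embryos. lnc_3296 was the only faller above 0 everywhere, at 17.6 and 19.2 FPKM and then at 3.08 and 3.63 FPKM (log2 change -2.30, SE 0.35, adjusted p = 0.0389). Of 20 alternative settings, 17 kept the call of lnc_2888, 12 that of lnc_702 and 10 that of lnc_4194, and 10 of 21 kept that of lnc_3296.

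**Figure D2:**
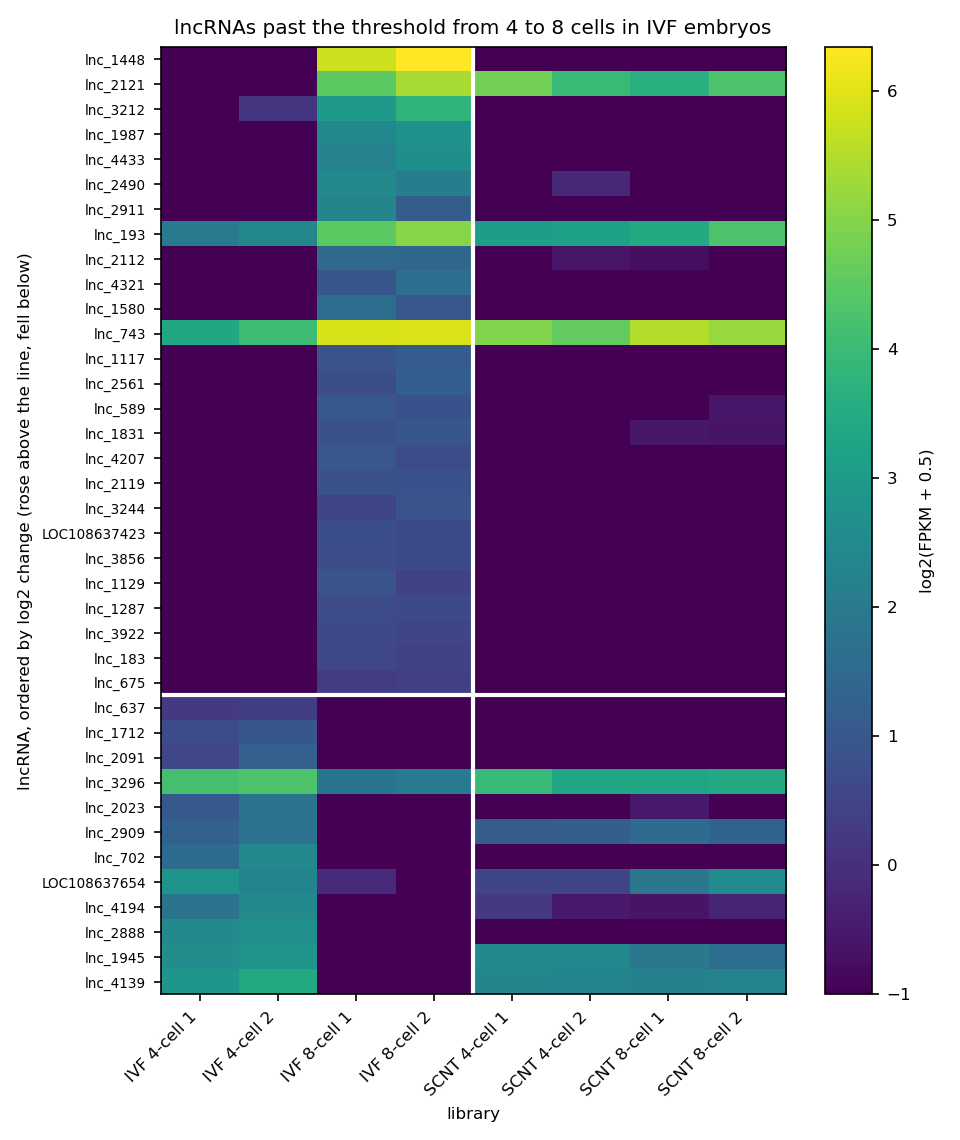
Log2(FPKM + 0.5) in all 8 libraries (columns) for the 38 members that passed the test (rows, by log2 change); the darkest colour is 0 FPKM, the white horizontal line parts the 26 that rose from the 12 that fell, and the white vertical line parts IVF from SCNT. Most rows that rose are dark outside the IVF 8-cell libraries; lnc_2121, lnc_4139, lnc_1945 and lnc_2909 are lit in every SCNT library.

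A second fit, chosen after seeing these values, kept only the 1119 lncRNAs above 0 in all 8 libraries, so that no group had a spread of 0. There 10 members passed, 8 higher and 2 lower, which is 0.894% of the lncRNAs in that fit (0.715% higher and 0.179% lower). Only 3 of them had passed before: lnc_743, lnc_193 and lnc_3296. The 4 annotated ones all rose. LOC102177005 was at 1.83 and 1.37 FPKM at 4 cells and at 21.5 and 7.94 FPKM at 8 cells. LOC102188899 was at 0.03 and 0.15 FPKM (1 and 5 reads) and then at 5.18 and 2.95 FPKM. Its place in this fit thus rested on 1 read in IVF 4-cell replicate 1. LOC106503063 went from 0.42 and 0.31 FPKM (9 and 7 reads) to 11.2 and 4.60 FPKM. For LOC106503569 the values were 0.42 and 0.07 FPKM (37 and 7 reads) and then 1.94 and 2.17 FPKM. In all 4 the stages did not overlap. Of the remaining numbered ones, lnc_1458 rose from 0.28 and 0.48 FPKM to 4.01 and 3.60 FPKM, lnc_3614 from 0.18 and 0.05 FPKM to 1.07 and 1.65 FPKM, and lnc_3083 fell from 3.83 and 6.15 FPKM to 0.32 and 0.85 FPKM.

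A level of 0 in both libraries of one stage, against a level in both of the other, was counted in each class. At 0.5 FPKM or more in both 8-cell libraries were 343 annotated and 1055 numbered lncRNAs. Of these, 4 annotated and 87 numbered ones were at 0 in both 4-cell libraries. At that level in both 4-cell libraries were 300 and 890, of which 1 annotated and 45 numbered ones were at 0 in both 8-cell libraries. Of the 87, 34 were also at 0 in all SCNT libraries, and of the 45, 7 were. Raising the level to 5 FPKM left no annotated lncRNA and 9 and 4 numbered ones. One of the 9, lnc_3601, was chosen for its values after they were seen. It was at 0 and 0 FPKM at 4 cells and at 223 and 195 FPKM at 8 cells, the largest log2 change of all members at 8.71, and did not pass (adjusted p = 0.22). In SCNT embryos it was at 0 and 69.4 FPKM and then at 35.4 and 0 FPKM, so replicates of one group differed there by the whole range. It was the only lncRNA called by the fit on the IVF libraries alone (adjusted p = 0.0369).

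Zeros against high values were also found between replicates of the same stage. Among numbered members at 5 FPKM or more in either 4-cell library, 46 of 341 (13.5%) were at 0 in the other replicate. At 8 cells it was 62 of 428 (14.5%). Between a 4-cell and an 8-cell library the share was 13.2% to 16.4%, a range that includes both values between replicates. For annotated members the numbers were 0 of 133 and 0 of 145 between replicates, and at most 1.53% between stages. Across members, which are not independent, the replicates correlated at r = 0.93 (4 cells) and 0.92 (8 cells) for annotated and at 0.71 and 0.67 for numbered lncRNAs.

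Zeros stood beside large read numbers. lnc_2133 had 122 FPKM (4436 reads) in IVF 4-cell replicate 1, 0 in replicate 2, 0 in IVF 8-cell replicate 1 and 85.0 FPKM (3491 reads) in replicate 2. lnc_2877 was at 231 FPKM (6735 reads) in IVF 8-cell replicate 1 and at 0 in replicate 2. The totals of the 4 libraries lay between 26.9 and 30.3 M reads.

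**Figure D3:**
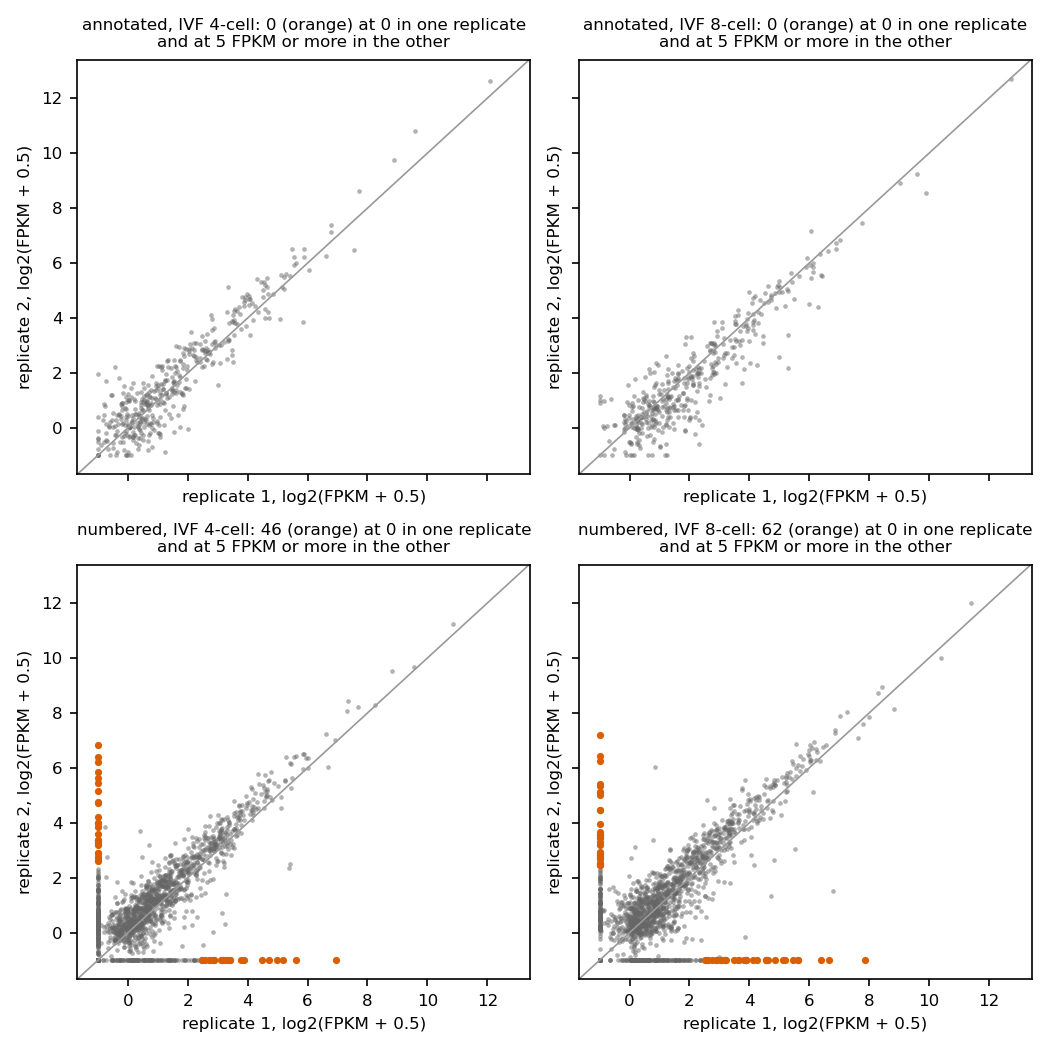
Log2(FPKM + 0.5) in replicate 1 (horizontal) against replicate 2 (vertical) of the IVF 4-cell and 8-cell stage for annotated (top) and numbered members (bottom); orange points are at 0 in one replicate and at 5 FPKM or more in the other. There are none among annotated members, 46 among numbered members at 4 cells and 62 at 8 cells.

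Zeros were also described over pairs of consecutive numbers. Of 82 pairs of numbered lncRNAs with consecutive numbers in which both reached 5 FPKM in an IVF library, 9 had exactly 1 of the pair above 0 in each of the 4 IVF libraries. In 15 more this held in 3 libraries, in 20 in 2, in 16 in 1, and in 22 in none. Pairs without consecutive numbers were not counted, so whether this pattern is particular to consecutive numbers was not tested. In some of the 9 pairs, such as lnc_3312 with lnc_3313, 1 of the pair was above 0 in only 1 IVF library. Whether consecutive numbers lie side by side in the genome is not given in the sources used here. Of lnc_3871 and lnc_3872, the first was at 0, 84.7, 0 and 147 FPKM in IVF 4-cell replicates 1 and 2 and 8-cell replicates 1 and 2, and the second at 8.52, 0, 13.6 and 0 FPKM. lnc_1121 was at 3.2, 0, 5.70 and 0 FPKM and lnc_1122 at 0, 5.65, 0 and 11.2 FPKM. lnc_1395 was at 11.6, 0, 0 and 0 FPKM and lnc_1396 at 0, 11.6, 17.9 and 17.7 FPKM.

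Consecutive numbers were also compared around members named above. lnc_3601 and lnc_3602 have consecutive numbers, and the first was higher and the second lower at 8 cells. In IVF 4-cell replicate 1 the values of the pair were 0 and 755 FPKM and in replicate 2 they were 0 and 815 FPKM. In the IVF 8-cell replicates they were 223 and 312 FPKM and 195 and 420 FPKM, so both were above 0 there. Beside lnc_1448, lnc_1447 stood at 11.1, 13.1, 9.61 and 8.32 FPKM in the 4 IVF libraries, and lnc_1449 was at 0 in all 4. In SCNT embryos lnc_1448 was at 0 throughout. There lnc_1449 was at 8.19 and 7.55 FPKM at 4 cells and at 7.05 and 0 FPKM at 8 cells. Beside lnc_1987, lnc_1988 was at 0 and 0 FPKM and then at 3.13 and 2.88 FPKM, higher at 8 cells as lnc_1987 was (adjusted p = 0.066). Beside lnc_702, lnc_703 was at 2.09 and 2.24 FPKM and then at 0.46 and 0.45 FPKM, lower at 8 cells as lnc_702 was (adjusted p = 0.144). Next to lnc_750, lnc_751 was at 0 in all IVF and both SCNT 4-cell libraries and at 106 and 68.7 FPKM in the SCNT 8-cell libraries, where lnc_750 itself was at 0. The neighbours in number of lnc_2121, lnc_4433 and lnc_2490 stayed at or under 0.55 FPKM in the IVF libraries.

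**Figure D4:**
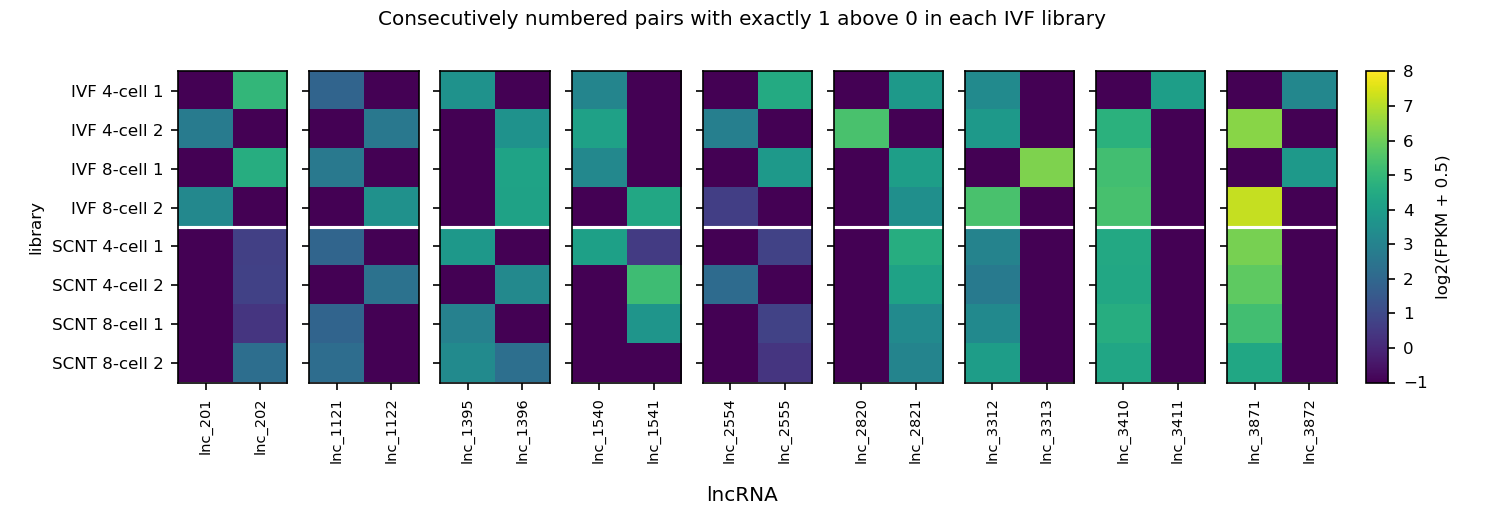
Log2(FPKM + 0.5) in the 8 libraries (rows, IVF above the white line and SCNT below) for the 9 pairs of consecutively numbered lncRNAs with exactly 1 of the 2 above 0 in every IVF library. In 4 of the pairs, such as lnc_201 with lnc_202 and lnc_1121 with lnc_1122, the 2 replicates hold different members of the pair at both IVF stages.

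The stage change of IVF embryos was set beside that of SCNT embryos, which shares no library with it. The median change in SCNT embryos was 0.09 for annotated and -0.01 for numbered members, and 1 annotated and 2 numbered members rose and 1 numbered member fell there. Over all tested lncRNAs 0.843% passed in SCNT embryos, 0.651% higher and 0.191% lower. Across members, the IVF and the SCNT change correlated at r = 0.17 for the 415 annotated and at r = 0.02 for the 1560 numbered lncRNAs. This is a description over lncRNAs of the same 8 libraries. None of the 38 lncRNAs called in IVF embryos was called in SCNT embryos. However, 18 of the 25 numbered risers, 5 of the 11 numbered fallers and the annotated riser were at 0 in every SCNT library. These had no SCNT change to call, and few lncRNAs passed in SCNT embryos at all. The lack of shared calls therefore does not show that the changes differed.

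A test of the difference between the 2 changes (limma interaction) passed for 10 members, 5 in each direction. Over all tested lncRNAs 0.574% passed, 0.268% with a positive and 0.306% with a negative difference. The difference is the signed IVF change minus the signed SCNT change, so a larger fall in IVF embryos counts as negative. For 7 of them the IVF change was itself called: LOC108637654, lnc_1448, lnc_1987, lnc_2121, lnc_4433, lnc_2888 and lnc_4139. Of these, lnc_1448, lnc_1987, lnc_4433 and lnc_2888 were at 0 in all SCNT libraries, so the difference equals their IVF change. In the other 3 the SCNT change was called. lnc_750 was at 37.4 and 45.5 FPKM and then at 67.8 and 106 FPKM in IVF embryos, but at 44.4 and 39.7 FPKM and then at 0 and 0 FPKM in SCNT embryos (difference of the log2 changes 7.44, adjusted p = 0.00653). lnc_47 was at 16.7 and 21.5 FPKM and then at 28.3 and 41.3 FPKM in IVF embryos, against 0 and 0 FPKM and then 14.9 and 15.6 FPKM in SCNT embryos. lnc_1896 was at 0.85 and 0.79 FPKM and then at 0 and 0 FPKM in IVF embryos, against 0 and 0 FPKM and then 6.08 and 10.1 FPKM in SCNT embryos. Of these 10, none was called without IVF 4-cell replicate 2 or without either SCNT 4-cell replicate, and 3 were called without IVF 4-cell replicate 1.

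**Figure D5:**
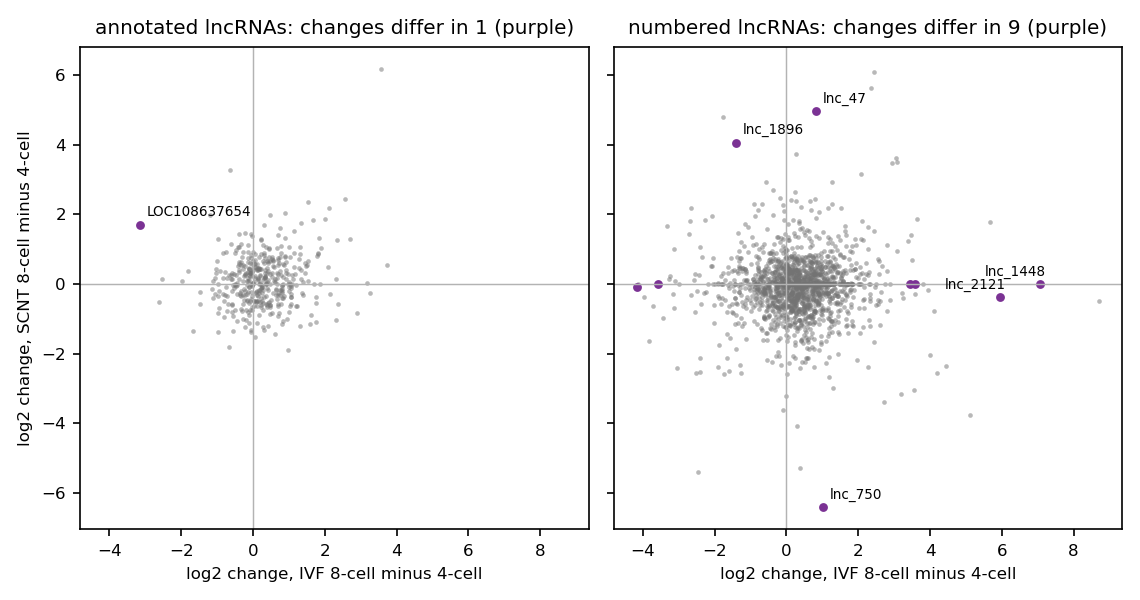
Log2 change from 4 to 8 cells in IVF embryos (horizontal) against that in SCNT embryos (vertical) for annotated and numbered members; purple points are the 1 annotated and 9 numbered members whose changes differed in the limma interaction at an adjusted p under 0.05. The strongest IVF risers lie near 0 on the vertical axis, and lnc_750 lies at the bottom, where the SCNT 8-cell libraries are at 0.

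lnc_3712, the lncRNA named in the title of the series, was at 0 in all 4 IVF libraries. It was also at 0 in the SCNT 4-cell libraries and at 0.47 and 0.86 FPKM (22 and 41 reads) in the SCNT 8-cell libraries. It was therefore not among the members and had no stage change to measure in IVF embryos.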

How the data were processed

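Polyadenylated RNA of goat embryos was sequenced in 8 libraries, and the authors deposited tables of FPKM values per lncRNA, the unit used here. Tools listed in the submitters' processing notes are fastp, HISAT2 (2.2.1) and HTSeq, with no role for each; build, annotation and the assembly of numbered lncRNAs: not given in the sources used here. The 1975 members, the gene lists and the tests were chosen with earlier results of these data known.

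The 2611 lncRNAs at 0.5 FPKM or more in at least 2 of 8 libraries were tested on log2(FPKM + 0.5) with limma 3.58.1 in R 4.3.3. All 4 groups entered a single fit, with eBayes and a trend of variance on level. The fit was tried on simulated data in which every group had a spread. Most lncRNAs called had groups at 0, so that trial says nothing on them. Tests were two-sided, and p-values were adjusted over all 2611 by the Benjamini-Hochberg method, with a threshold of 0.05. A log2 change on this scale understates the change of a low lncRNA. The 415 annotated members were paired with symbols through their 8-cell values, which were identical in the submitters' separate set of known lncRNAs.

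Whole reads were recovered from the FPKM values. The commonest ratio of a lncRNA's values between libraries gives the relative totals, and 24 miRNA genes of known length give the absolute ones. All 2611 tested lncRNAs then came to whole reads within 0.0002 of a read at some length of 200 bases or more; the shortest such length was taken, so the read numbers are the smallest possible. A count of 0 allows up to 3 reads. These limits cover counting error only, since PCR copies cannot be told from separate molecules.

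The lncRNAs named in the text were chosen per class and direction: the 6 largest changes among those that passed without overlap of the stages, up to 4 with the smallest adjusted p among those also above 0 in all 4 IVF libraries, the 3 smallest p where fewer than 3 passed, the 4 most abundant, the 3 largest differences from SCNT embryos each way, the lncRNA of the series title and annotated lncRNAs with a symbol other than a LOC number. Alternatives covered the pseudocount, the filter, the scaling, the samples in the fit, the variance trend, the replicate number as a block and each library left out; voom on the recovered reads and a fit without zeros were added after seeing the data. Promoter sequences were not used here.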

Additional observations from a re-analysis of the deposited data

Results flagged for a closer look

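In 10 members the change from 4 to 8 cells differed between IVF and SCNT embryos by the test of that difference (limma interaction, Benjamini-Hochberg adjusted p under 0.05). Positive values mean a larger rise or a smaller fall in IVF embryos, and negative values the reverse. They are fitted differences of log2(FPKM + 0.5), and where a group is at 0 they depend on the pseudocount and are no fold.

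For 7 of the 10 the IVF change itself passed the test and the SCNT change did not. The difference was 7.07 for lnc_1448, 6.32 for lnc_2121, 3.59 for lnc_1987 and 3.45 for lnc_4433, all of which rose in IVF embryos. It was -4.84 for LOC108637654, -4.08 for lnc_4139 and -3.58 for lnc_2888, which fell. lnc_1448, lnc_1987 and lnc_4433 were at 0 in every SCNT library, and so was lnc_2888. For these the difference is the IVF change itself, so it is no second line of evidence.

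For the remaining 3 the SCNT change passed and the IVF change did not. The difference was 7.44 for lnc_750, which was at 0 in both SCNT 8-cell libraries. It was -4.14 for lnc_47 and -5.46 for lnc_1896, which were at 0 in both SCNT 4-cell libraries.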

How the results depend on the processing

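The counts of lncRNAs that passed were the least stable results. In the order annotated, numbered and different from SCNT, they were 2, 36 and 10. With no filter beyond a value above 0 they were 0, 7 and 3, and the filter of 1 FPKM left 0 annotated and 10 numbered. The IVF libraries alone gave 0 and 1, median centring 1 and 15, rescaling to equal summed FPKM 1 and 20, and eBayes without a trend 0 and 13. voom on the recovered reads gave 0 annotated, 42 numbered and 9 different from SCNT. The fit without zeros gave 4, 6 and 0, and a pseudocount of 1 FPKM left 3 different from SCNT. Leaving out a library gave between 0 and 6 annotated, 4 and 75 numbered, and 0 and 63 different from SCNT; a group left with 1 library is then assumed to vary like the others. Unadjusted p-values under 0.05 were found for 64 annotated and 301 numbered members. Pseudocounts of 0.1 and 1 FPKM, quantile normalization and separate fits of the classes kept the annotated and numbered counts within 1.5 times.

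The replicate numbers gave no sign of pairing libraries: across lncRNAs, the replicate differences of the IVF 4-cell and 8-cell pairs correlated at -0.03. With the replicate number as a block, 0 annotated and 1 numbered lncRNA passed, and 2 differed from SCNT.

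The median log2 change of annotated members was -0.0754 with median centring, -0.18 with rescaling and -0.14 with quantile normalization. For numbered members it was 0.010, -0.00967 and 0.00134. With the values as deposited, the median of all tested lncRNAs was 0.23.

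At a level of 1 FPKM, 1 annotated and 35 numbered lncRNAs were at 0 in both 4-cell libraries and at the level in both 8-cell libraries, and 24 numbered ones the reverse. At 0.1 FPKM these counts were 12 and 208, and 9 annotated and 126 numbered the reverse. At 0.1 FPKM, a 4-cell library held on average 648 annotated and 2133.5 numbered lncRNAs, and an 8-cell library 693.5 and 2359; the libraries of the stages overlapped in both classes at that level.

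Among named lncRNAs, 13 changes that did not pass turned their direction in some setting; the cause was not tested. With rescaling, the change was -0.13 for LOC106502328, -0.39 for LOC102190531, -0.29 for lnc_64, -0.0442 for C15H11orf31 and -0.20 for DMWD. Median centring gave -0.19 for LOC102190531, -0.0800 for lnc_64 and -0.13 for DMWD. Quantile normalization gave -0.13 for DMWD, and voom gave 0.15 for TRNP1. With a library left out, the change lay between -0.331 and 0.534 for LOC102190531, -0.14 and 0.55 for lnc_64, -0.17 and 1.06 for BARX1, -0.066 and 0.72 for C15H11orf31, -0.21 and 0.53 for DMWD, -0.63 and 0.51 for GNB2, -0.051 and 0.77 for INAFM2, -0.61 and 0.51 for LUZP1, -1.67 and 0.13 for PIGBOS1, -0.42 and 0.15 for RPL37A, -0.095 and 0.836 for SOX7, and -0.490 and 0.270 for TRNP1.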
